A study of Rattus norvegicus with 12 samples.

Results

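The arcuate nucleus of rats that responded strongly to 2 Hz electroacupuncture was compared with that of rats that did not respond. The 6 arrays were those titled as 2 Hz high responders (2Hz_HR, 3 rats) and 2 Hz non-responders (2Hz_NR, 3 rats), out of 12 arrays in 4 groups. Of the 11257 features in the authors' value table, 9603 had a value on all 6 arrays and were compared. A further 285 had a value on none of the 6, and 1369 on some.

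Electroacupuncture passes a pulsed current through needles placed at acupuncture points. All 6 animals were Sprague-Dawley rats that received 2 Hz stimulation for 30 min, were tested for pain sensitivity and spent 1 h in their home cages before they were killed. High responders and non-responders were classes of analgesic response, so the classes are a grouping of treated animals by their own behaviour and not a treatment. The class comes from the sample titles and the responder label, since the treatment text is worded alike for both. RNA of each rat was labelled with Cy3 and hybridised on its own 2-colour cDNA array against Cy5-labelled RNA pooled from 3 unstimulated control rats. Values are log2 ratios of the rat over the pool, Cy3 over Cy5. The pool and the dye orientation were the same in both classes, so both cancel in the difference between them. The labels name the pool's tissue in different ways, as arcuate nucleus in some places and as dorsal horn in others. This likewise does not enter that difference. A ratio above or below the pool is therefore not read as a change from control arcuate tissue.

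The arcuate nucleus lies at the base of the hypothalamus beside the third ventricle and holds neurons that make pro-opiomelanocortin, the precursor of the opioid peptide beta-endorphin. Some of these neurons project to the periaqueductal gray, a midbrain region from which descending pathways dampen pain signals in the spinal cord. Analgesia by low-frequency electroacupuncture has been linked to the release of endogenous opioid peptides, among them beta-endorphin and the enkephalins, and animals differ widely in how strongly they respond. The comparison asks which arcuate transcripts differed between rats at opposite ends of that response.

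The files name each feature only by its place on the slide and do not pair features with genes. A name such as Sr01Sc01R13C08 gives the row and column of the printed block and then the row and column of the spot within it. No gene, pathway, cell type or sequence can therefore be given, and the dissection could not be checked against arcuate markers. In tissue of mixed cells, fewer cells of a type and less RNA per cell cannot be told apart.

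Signal was similar on the 6 arrays. Median Cy3 intensities lay between 571 and 648 and median Cy5 intensities between 634 and 787. A spot counted as above background where its mean signal exceeded the mean local background by 2 of its SDs, which held for 94.9% to 95.8% of the features in the Cy3 channel and for 86.0% to 89.2% in the Cy5 channel. On all 6 arrays and in both channels, 7737 of the 9603 features (80.6%) were above background. The median Cy5 intensity, which comes from the shared pool, was 731.1 ± 50.19 on high-responder arrays and 651.3 ± 15.06 on non-responder arrays (SD, n = 3 each), and all 3 of the former exceeded all 3 of the latter (two-sided exact permutation p = 0.1, the smallest that 3 against 3 arrays allow, and 0.5 after adjustment over 5 array properties). The other 4 properties, among them the SD of the log2 ratios at 0.4107 ± 0.07041 against 0.4155 ± 0.02702 (SD, n = 3 each), gave exact permutation p-values from 0.5 to 1.

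No feature passed the threshold for a difference between high responders and non-responders. With limma and Benjamini-Hochberg adjustment over 9603 features, 0 (0%) reached an adjusted p under 0.05, and the lowest adjusted p was 0.800. Typical differences were small: the median size was 0.1385 on the log2 scale, a 1.10-fold difference, and the middle 50% of features lay between -0.11 and 0.16. Without adjustment, 366 features (3.81%) had a limma p under 0.05, 223 (2.32%) higher and 143 (1.49%) lower in high responders. The 143 lower features differed by a median of 0.6439 in size on the log2 scale, 1.56-fold, and the 223 higher ones by 0.4038, 1.32-fold. The direction of these counts depended on how the arrays were scaled, since the higher share was 60.93% in the authors' values, 45.38% after each array was centred on its median, and 39.23% in loess-normalised spot intensities.

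The width of the intervals sets what the comparison could show. The median 95% interval reached 0.3762 to either side on the log2 scale, or 1.30-fold, and for the least precise 5% of features it reached at least 1.219, or 2.33-fold. For 5504 features (57.32%) the whole interval lay within 1.5-fold in both directions. Among features above background throughout, that share was 67.86%. Nothing in the labels says whether the rats came from separate litters or days. The intervals and limma p-values rest on the spread among rats within groups over the 11 arrays of the fit, moderated across features. They therefore include rats stimulated at 100 Hz and do not measure the spread of the 6 compared rats alone. In a fit of the 6 arrays at 2 Hz alone, the median 95% interval reached 0.3442 to either side.

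**Figure D1:**
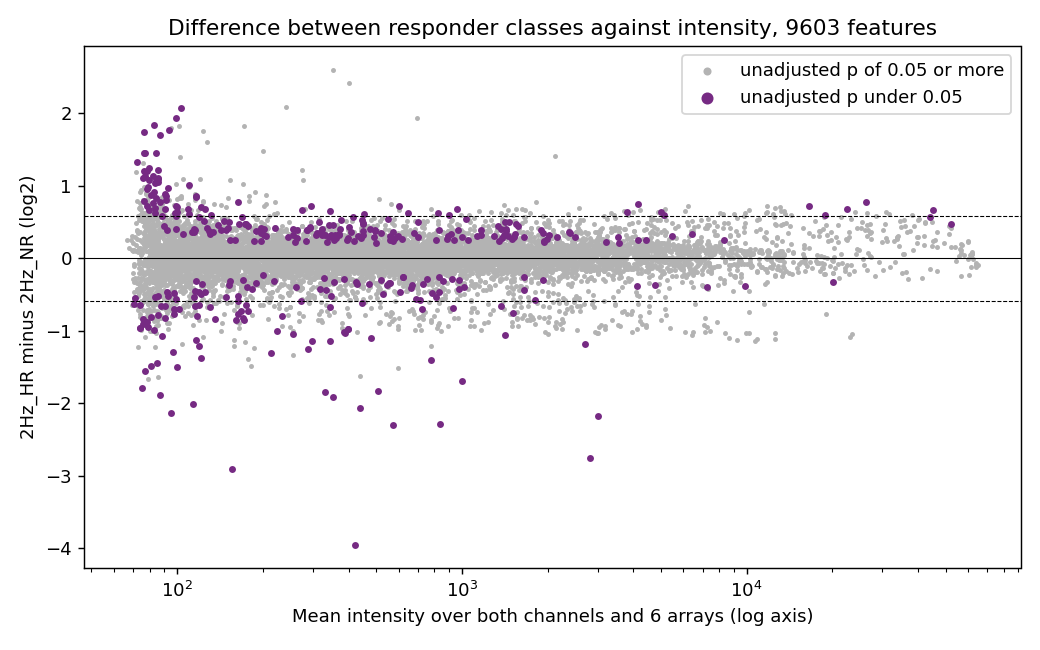
Log2 difference between 2Hz_HR and 2Hz_NR means (vertical axis) against mean spot intensity over both channels and the 6 arrays (horizontal log axis) for 9603 features, with purple points for the 366 at an unadjusted limma p under 0.05 and dashed lines at 1.5-fold. The cloud is widest at the dim end, and the lower side holds a scatter of bright features beyond -1.5.

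Differences past 1.5-fold were found at 254 features (2.65%) in the higher and 409 (4.26%) in the lower direction. Among the 7737 features above background the imbalance was larger, with 79 higher and 270 lower, while the 1866 dimmer features gave 175 higher and 139 lower. In 10 classes of equal size by intensity, the dimmest held 223 of these differences and the brightest 81. Median differences were 0.3238 in size in the dimmest class, 0.1072 in the sixth and 0.1424 in the brightest.

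At 989 features (10.3%) all 3 high responders lay above all 3 non-responders, and at 513 (5.34%) all 3 lay below. Both directions together made 1502 features (15.6%). In Cy5 alone, which holds the same pooled RNA on every array, the count was 713 (7.42%), with 465 (4.84%) higher on high-responder arrays. In Cy3 alone it was 1046 (10.9%), with 778 (8.1%) higher. The channel counts come from intensities normalised between arrays and not from ratios, so they set no null share for the 1502. For 3 against 3 interchangeable arrays the expected share in either direction is 0.1. The higher direction took 65.8% of the 1502 features in the authors' values, 56.1% after centring and 51.6% after loess normalisation, so the excess of higher features shrank with the scaling. Of the 1502, 230 were also past 1.5-fold, 99 higher and 131 lower.

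By a rule of lowest p among features above background on all arrays with groups that did not overlap, 2 higher and 2 lower features are described singly. All carried an adjusted p of 0.80 (limma, Benjamini-Hochberg), so none of the 4 passed the threshold, and the groups were separate by the rule itself.

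Feature Sr01Sc01R13C08 is a bright spot in the first printed block. Its log2 ratio was 0.39, 0.39 and 0.18 in HR rats 1 to 3 and -0.24, -0.42 and -0.26 in NR rats 1 to 3. High responders were thus all above the pool and non-responders all below it. The means were 0.32 ± 0.12 and -0.31 ± 0.10 (SD, n = 3 each). The difference was 0.63 or 1.55-fold (95% interval 0.28 to 0.98, rank 7 of 9603 by limma p). Its Cy3 intensity was 5393, 4435 and 4175 in high responders and 2543, 2168 and 2455 in non-responders. Its Cy5 intensity was 6553, 5317 and 5746 against 4031, 3627 and 4167, so the pool channel was also higher on every high-responder array, by a smaller factor. After normalisation of each channel alone the Cy3 difference was 0.9305 and the Cy5 difference 0.3293 on the log2 scale. With print-tip loess, which normalises within each printed block, the difference in ratio was 0.4443. At 100 Hz the difference between classes at Sr01Sc01R13C08 ran the other way, at -0.5569 (SE 0.172, adjusted p = 1 by limma).

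Feature Sr02Sc02R02C04 had log2 ratios of 0.04, 0.32 and 0.10 in HR rats 1 to 3 and -0.24, -0.25 and -0.21 in NR rats 1 to 3. The non-responders lay within a narrow band below the pool and the high responders above it. The means were 0.15 ± 0.14 and -0.23 ± 0.02 (SD, n = 3 each). They differed by 0.39 or 1.31-fold (95% interval 0.17 to 0.61, rank 9 of 9603 by limma p). In single channels the Cy3 intensity of Sr02Sc02R02C04 differed by 0.1105 and the Cy5 intensity by -0.2327 on the log2 scale. After this normalisation of each channel the larger share of the ratio difference lay in the channel of the pool. Raw Cy5 intensities of Sr02Sc02R02C04 overlapped, at 2370, 985 and 2007 in HR rats 1 to 3 and 1573, 1453 and 1713 in NR rats 1 to 3. Only HR rat 2 lay below the non-responders there. The difference at Sr02Sc02R02C04 was 0.2322 without background correction and 0.2363 with print-tip loess.

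Feature Sr12Sc01R11C03 had log2 ratios of -0.11, -0.21 and -0.35 in HR rats 1 to 3 and 0.67, 1.29 and 0.78 in NR rats 1 to 3. Every non-responder was above the pool and every high responder below it. The means were -0.22 ± 0.12 and 0.91 ± 0.33 (SD, n = 3 each). The difference was -1.14, or 2.20-fold lower in high responders (95% interval -1.69 to -0.59, rank 3 of 9603 by limma p). In channels normalised separately, Cy3 differed by -0.366 and Cy5 by 0.5116, so the larger part lay in the channel of the pool. Raw Cy3 intensities of Sr12Sc01R11C03 were 491, 448 and 389 in high responders and 478, 634 and 404 in non-responders, and these overlapped. Without background correction the log2 difference of Sr12Sc01R11C03 was -0.5143.

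Feature Sr04Sc01R08C03 had log2 ratios of -0.23, 0.01 and -0.08 in HR rats 1 to 3 and 0.77, 1.66 and 0.70 in NR rats 1 to 3. The high responders were close to the pool and the non-responders above it, NR rat 2 most of all. Their means were -0.10 ± 0.12 and 1.04 ± 0.54 (SD, n = 3 each). They differed by -1.14, or 2.21-fold with high responders the lower (95% interval -1.78 to -0.51, rank 8 of 9603 by limma p). For Sr04Sc01R08C03 the difference lay in the channel of the rat, with -0.9092 in Cy3 and 0.03764 in Cy5. Without background correction the log2 difference of Sr04Sc01R08C03 was -0.6903.

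**Figure D2:**
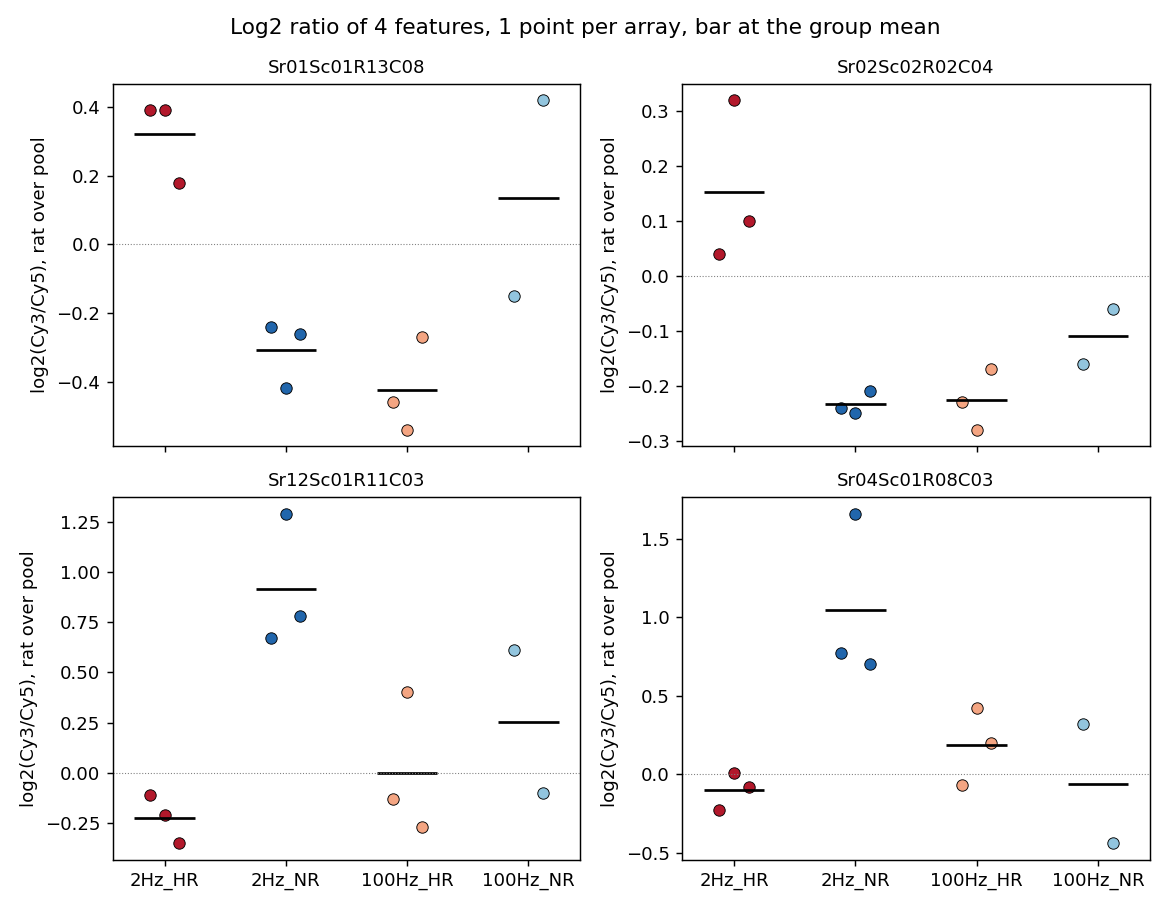
Log2 ratio of the rat over the control pool for 4 features, with 1 point per array, 4 groups on the horizontal axis and a bar at each group mean (each panel has its own vertical scale). The 2Hz_HR and 2Hz_NR points do not overlap in any panel, and the highest single value is that of NR rat 2 at Sr04Sc01R08C03, 1.66.

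The largest differences among features above background formed a set with a shared profile. It holds the 10 features that were over 3-fold lower in high responders, a choice made after the values were seen and on these values, so that what follows is a description with no test. Their differences ran from -2.75 to -1.63 on the log2 scale with a median of -1.99, or 3.97-fold. The median log2 ratio of the 10 was 0.32, -0.40 and -1.10 in HR rats 1 to 3 and 1.26, 2.29 and 1.37 in NR rats 1 to 3. At all 10 features the 3 non-responders lay above the 3 high responders, NR rat 2 was the highest of the 6, and at 8 of 10 HR rat 3 was the lowest. The median over all features above background stayed between -0.07 and 0.00 on the same 6 arrays. The 10 spots lay in 8 printed blocks, none carried the quantification software's code 1, and their mean intensities ran from 330.4 to 3010.

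The difference of these 10 features lay in the channel of the rats. In single channels the median log2 difference was -1.75 in Cy3 and 0.02 in Cy5. Median Cy3 intensities were 747, 607 and 454 in high responders and 1040, 2415 and 904 in non-responders. Loess normalisation of the spot intensities gave a median difference of -1.70 and normalisation within each printed block -1.75, with all 10 features lower in high responders after loess.

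The same 10 features also varied among the rats stimulated at 100 Hz, whose arrays had no part in the choice. Their median log2 ratio was -0.66, 1.62 and -0.12 in the 3 high responders at 100 Hz. It was 1.54 and -0.85 in the 2 non-responders whose arrays were kept, 1 array having been left out as described below. Among the arrays kept, the median of the 10 was thus high in 1 rat of each class, and the classes overlapped. The highest single value in 100Hz_HR rat 3 was 1.567. The median difference between classes at 100 Hz was -0.04 on the log2 scale, with 6 of the 10 features lower and 4 not. At 2 Hz the SE of a single one of these differences had a median of 0.7802.

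**Figure D3:**
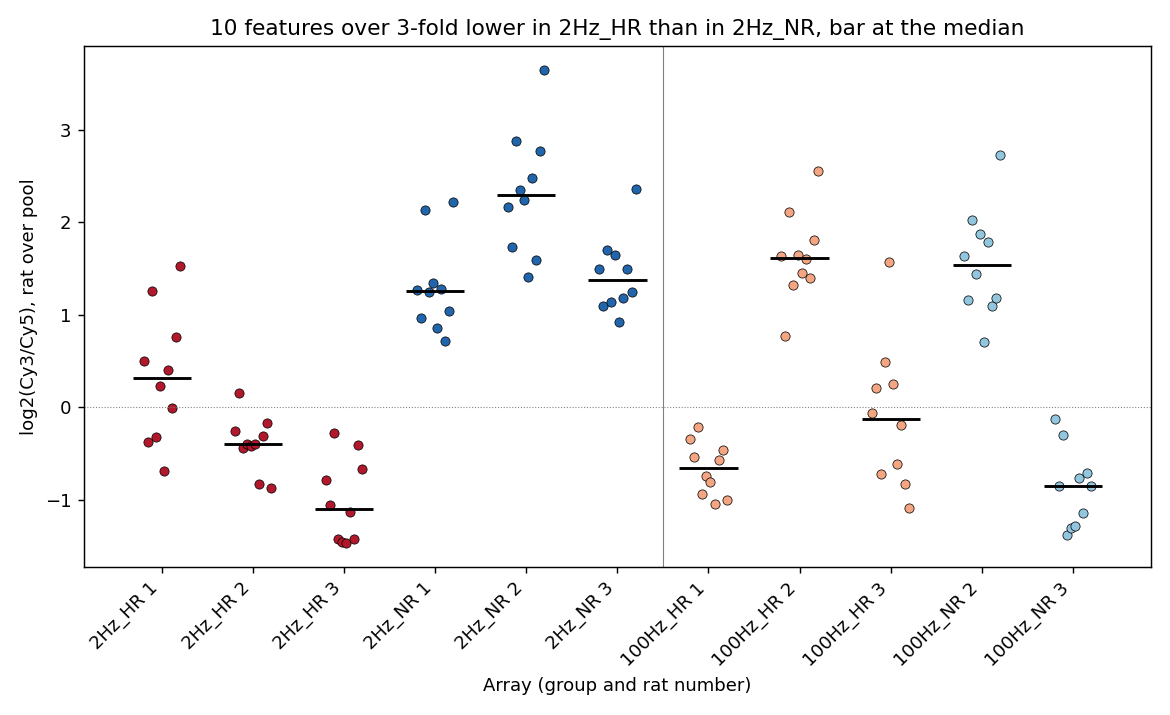
Log2 ratio of the rat over the control pool (vertical axis) for the 10 features above background that were over 3-fold lower in 2Hz_HR than in 2Hz_NR, on each of 11 arrays (horizontal axis, group and rat number), with 1 point per feature and a bar at the median. The non-responders at 2 Hz have medians from 1.26 to 2.29 and the high responders from -1.10 to 0.32, while the arrays at 100 Hz spread from -0.85 to 1.62 across both classes.

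In the opposite direction only 2 features above background were over 3-fold higher in high responders. Both had log2 ratios of at least 5.67 in HR rat 1 and between -0.19 and 0.21 in the other 5 rats, and both were spots that carry code 1 on the array of HR rat 1. The files do not say what code 1 stands for.

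The profiles of the 6 rats did not fall cleanly into their classes. Across the 7737 features above background, Pearson's r between log2 ratio profiles was 0.404 to 0.544 within high responders and 0.251 to 0.399 within non-responders, all arrays sharing the pool. Between classes it ran from -0.146 to 0.637. The median was 0.453 over 3 pairs within high responders, 0.305 over 3 within non-responders and 0.208 over 9 between classes. NR rat 3 correlated at 0.637 with HR rat 1 and at no more than 0.305 with either of the other non-responders. NR rat 1 stood opposite HR rats 2 and 3, at -0.133 and -0.146, and close to a high responder stimulated at 100 Hz, 100Hz_HR rat 2, at 0.807. These values are descriptions across features, which are not independent replicates.

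**Figure D4:**
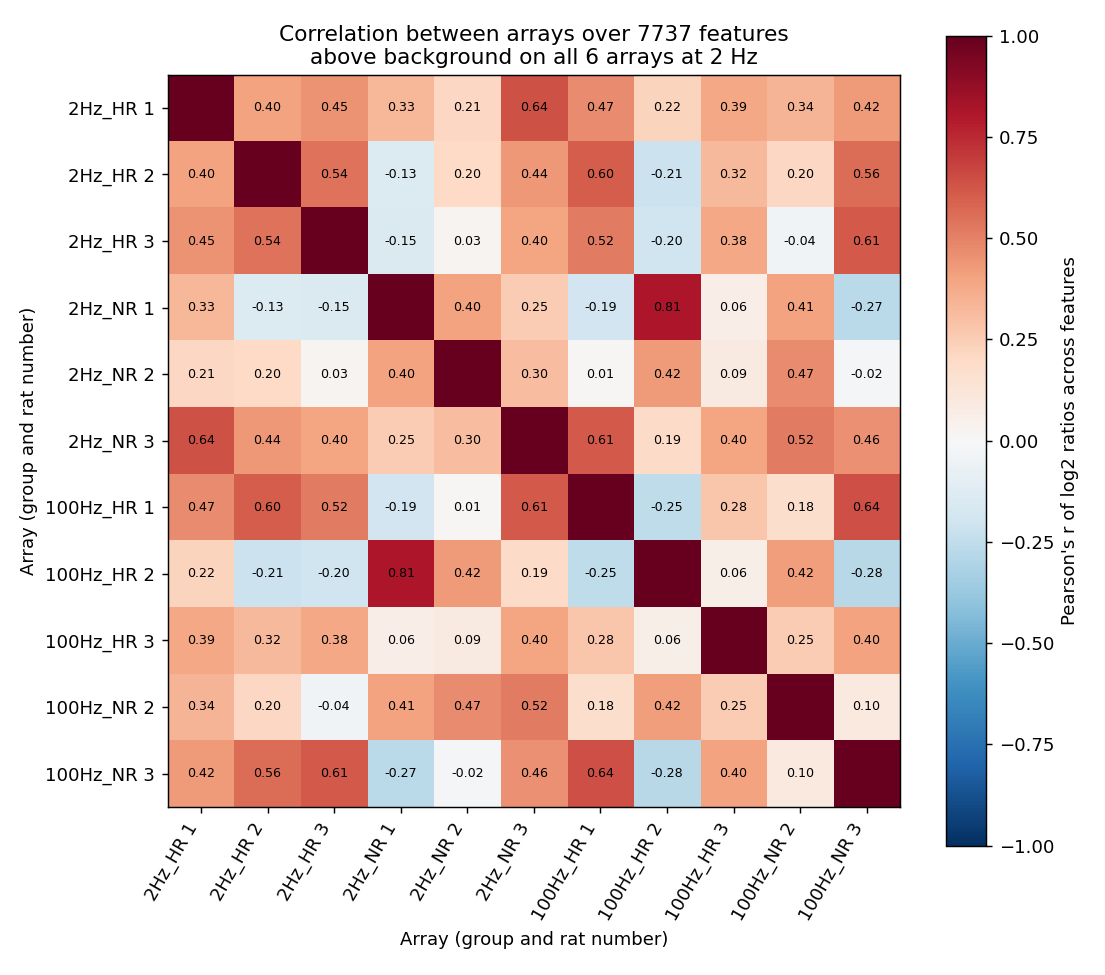
Pearson's r between the log2 ratio profiles of 11 arrays across 7737 features, with arrays by group and rat number on both axes and colour from -1 (blue) to 1 (red). The highest off-diagonal value, 0.807, joins a non-responder at 2 Hz and a high responder at 100 Hz, and the blocks of each class are not set apart.

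The first principal component of the 6 arrays at 2 Hz carried 50% of the variance and placed NR rat 1 at -26.6, NR rat 2 at -8.82, HR rat 1 at 2.37, NR rat 3 at 2.87, HR rat 2 at 9.63 and HR rat 3 at 20.5. The classes overlapped along it, with NR rat 3 among the high responders. The spread among rats of a class was alike in both: the median SD was 0.1555 for high responders and 0.16 for non-responders, and that of the non-responders was the larger at 51.9% of features. Among features above background, HR rat 3 lay farthest from the median of the 6 rats at 29.9% of features and HR rat 1 at 8.03%.

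Rats that bear the same number in both classes deviated together. The correlation of their deviations from the class means was 0.187, 0.160 and 0.192 for numbers 1 to 3 across all features, and between -0.178 and -0.0129 for rats of different number. With the number as a block on the 6 arrays, 1133 features (11.8%) had a limma p under 0.05 before adjustment, 629 higher and 504 lower, and 0 (0%) after it (lowest adjusted p 0.231). Without the block the 6 arrays alone gave 717 and likewise 0, with a lowest adjusted p of 0.172. The pairing raised the unadjusted count and made no call. It was taken from the correlations in these same values, so the higher count is no support for it. Deviations from a class mean sum to 0, so the correlations for equal and for different numbers are not independent. Among features above background, HR rat 3 and NR rat 2 correlated at 0.065 in their deviations.

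Each channel was also compared alone. Cy3, which holds the RNA of the rats, gave 0 features past the threshold (0%; lowest adjusted p 0.0514, limma with Benjamini-Hochberg) and 523 (5.45%) at an unadjusted limma p under 0.05, 389 of them higher in high responders. Cy5, which holds the pool, gave 0 (0%; lowest adjusted p 1) and 254 (2.65%). The differences in Cy3 and Cy5 correlated at 0.683 across features, and the difference in ratio correlated at 0.584 with that in Cy3 and at -0.08 with that in Cy5. Under median centring and under no background correction, 1 Cy3 feature passed (adjusted p 0.0351 and 0.0406). It was the same spot in both, it carries code 1 on at least 1 array and is not above background on all 6, and its log2 ratio differed by only -0.01, since Cy5 was lower as well.

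Differences also followed position on the slide. The median difference of a printed block ran from -0.1011 to 0.1702 over the 48 blocks. The highest was that of the block of Sr01Sc01R13C08. It was 0.1385 in the block of Sr02Sc02R02C04, -0.0985 in that of Sr12Sc01R11C03 and 0.05672 in that of Sr04Sc01R08C03. In the first block column the median was 0.0496 and above 0 in 10 of 12 blocks, and in the fourth it was -0.0492 and below 0 in 12 of 12. After normalisation within each block the medians ran from -0.02121 to 0.0219, and 0 features passed the threshold there too (lowest adjusted p 0.75).

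All 6 arrays were quantified on the same day of the month, but the headers of HR rats 2 and 3 carry a later year than the other 4. Year and class are thus partly confounded, and HR rat 1 is the only high responder of the earlier year. With the year as a block, 25 features (0.26%) passed at an adjusted p under 0.05 by limma, 23 of them higher in high responders (lowest adjusted p 1.14e-06). Within the earlier year 14 (0.146%) passed, all higher. These calls lay mostly in a small area of 1 array: 24 of the 25 lay in 2 neighbouring printed blocks, 22 carried code 1 on the array of HR rat 1, and HR rat 1 was the most extreme of the 6 rats at 25 of 25. Its log2 ratios there ran from -2.12 to 7.25, and those of the other 5 rats from -1.17 to 1.68. With features of code 1 left out, 1 feature (adjusted p 0.026) passed with the year as a block and 0 within the earlier year (lowest adjusted p 0.208). That feature lay in the same 2 blocks.

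**Figure D5:**
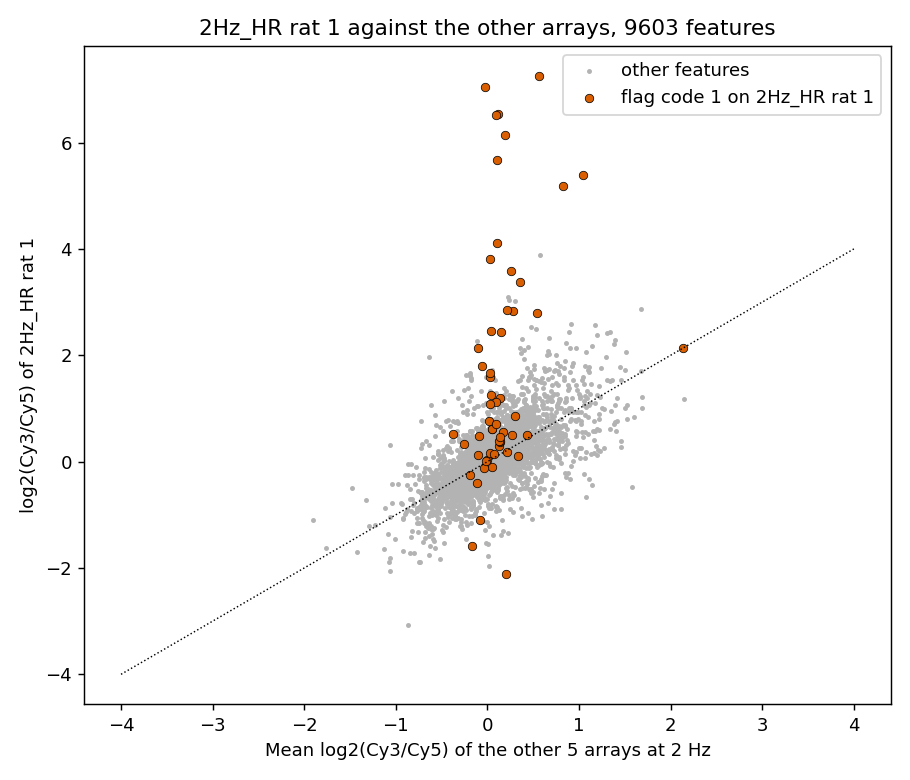
Log2 ratio of HR rat 1 (vertical axis) against the mean log2 ratio of the other 5 rats at 2 Hz (horizontal axis) for 9603 features, with orange points for the 56 spots of code 1 on the array of HR rat 1 and a dotted line of equality. The orange points rise to 7.25 on the vertical axis while most of them stay near 0 on the horizontal one.

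Whether the difference between responder classes depended on frequency was tested as an interaction. At 100 Hz, where 1 non-responder array was left out because it shares its Cy3 file with HR rat 1 at 2 Hz, 0 of 9602 features (0%) passed between classes (lowest adjusted p 1 by limma), and 241 (2.51%) had an unadjusted limma p under 0.05. The interaction gave 0 of 9594 (0%; lowest adjusted p 0.915 by limma), with 290 (3.02%) before adjustment and a median 95% interval of 0.5642 to either side on the log2 scale, or 1.48-fold. With the year as a block the high responders at 2 Hz were again represented by HR rat 1 alone, so the calls of that fit are not counted. For the 4 features described singly, the interaction was 1.19 at Sr01Sc01R13C08, 0.51 at Sr02Sc02R02C04, -0.88 at Sr12Sc01R11C03 and -1.39 at Sr04Sc01R08C03, each at an adjusted p of 0.915 by limma.

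Across 7722 features the class differences at the 2 frequencies correlated at -0.298, a description over features that share the pool. That value rested on single arrays: it was -0.625 without 100Hz_NR rat 2, 0.29 without 100Hz_HR rat 2 and 0.315 without 100Hz_NR rat 3.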

How the data were processed

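Per the labels, arcuate nucleus RNA of each stimulated rat (Cy3) and RNA of pooled controls (Cy5) was read with a laser scanner. The labels differ on the tissue of the pool. Quantification used ImaGene, version 4.2 per the labels and 5.1 per the file headers. Their spot files, as deposited, give the intensity and local background of 12288 spots in 48 blocks before any normalization, per the file headers. The authors' deposited value table holds log2 of Cy5 over Cy3; how it was normalized is not stated in the labels or headers used. Its sign was reversed. Its values between -1 and 1 equal logs of ratios rounded to 3 decimals, to within 0.0001, and at intensities above 2000 it correlated with the spot files at 0.966 to 0.997. Missing values were nearly all (99.8%) at spots of code 2, which the headers call empty.

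The members and lists were chosen with earlier results of these data known. A linear model over the 4 groups (lmFit, then eBayes, limma 3.58.1 in R 4.3.3) was fitted on 11 arrays (1 array at 100 Hz left out, since the same Cy3 file is listed for it and for HR rat 1 at 2 Hz). The value table correlated with the spot files of these arrays at 0.966 for HR rat 1 and at 0.232 for the array left out, at bright spots. Tests are two-sided, with Benjamini-Hochberg adjustment over all features tested and a threshold of 0.05. No filter on intensity was applied. Alternatives used spot intensities after normexp (offset 50) with global loess, print-tip loess or median centring, other filters, other sets of arrays, blocks and each rat left out. The class difference was itself a coefficient of the design, so that missing values at 100 Hz do not bias it. The test was checked on simulated data. The fixed lists of marker genes could not be used without gene names. For the same reason the rule for named features, lowest p among features above background with groups that do not overlap, was applied with 2 in each direction.

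Replicate numbers were taken to pair the rats because rats of the same number deviated together at each of the 3 numbers. The labels do not say what the number marks, so the pairing comes from the data alone. Signal over background is the only measure of depth, and the number of arrays limits the precision.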

Additional observations from a re-analysis of the deposited data

How the results depend on the processing

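Of 33 alternatives for the difference between classes, 24 planned and 9 chosen after seeing the data, 27 gave 0 features past the threshold and 6 gave calls. All 6 had the year of quantification in the fit: 25 with the year as a block, 14 within the earlier year, 30 with loess and the year as a block (27 in the same 2 blocks), 7 among features above background, and 1 with code 1 features or 1 with all coded spots left out. The unadjusted count of 366 was 717 on the 6 arrays alone, 1133 with the replicate block, 710 with array weights and 84 against a fold of 1.2. With loess it was 744 on the 6 arrays, 1247 with the replicate block and 220 with the year as a block. Without coded spots it was 1205 with the replicate block and 126 with the year as a block, 219 within the earlier year without code 1 features, and 115 with the year among features above background. With each rat left out it ran from 184 (without HR rat 3) to 464 (without HR rat 1), with 0 calls each and a lowest adjusted p of 0.0529 (limma, without HR rat 2). The count of features without overlap rose to between 2026 and 3187, since fewer rats must separate. The interaction gave calls with the year as a block, where HR rat 1 again stood alone. Cy3 alone gave 1 with median centring and 1 without background correction. The other alternatives kept both at 0. Among the 4 features described singly, 3 shrank by over 1.5 times without background correction, as given with them, and the lowest adjusted p over the alternatives was 0.298. Their direction was fixed by their choice under most alternatives. The replicate block changed no call. Causes were not tested beyond the values given. The number of rats, 3 a class, limits the precision.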

Other observations

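Some features had values in 1 class only. Of the 1369 features with a value on some of the 6 arrays, 6 had one on all 3 high-responder arrays and on no non-responder array. Another 17 had values the other way round. Whether these counts exceed those from spots missing without regard to class was not tested. Spots missing from the table carry code 2 in 99.8% of cases, against 12.1% of the listed ones.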
